A study of Mus musculus with 69 samples.

Results

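The expression of 40 genes of the smooth muscle contractile and actomyosin apparatus was followed through every library of the series. The genes were chosen by symbol, as known parts of that apparatus and with earlier results of these data known, and make up 40 of the 56953 genes in the count tables. All 40 passed the filter on low counts in every comparison. They comprise 2 actins and a filament cap, 4 tropomyosins, 7 regulators of the thin filament, 3 myosin heavy chains, 4 myosin light chains, 8 kinases, phosphatase subunits and RhoA pathway genes, 7 genes of dense bodies and anchors, and 4 genes of intermediate filaments and other functions.

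The series held poly(A) RNA-Seq libraries of cultured cells from male C57BL/6 mice. WT VSMC (vascular smooth muscle cells) were isolated from the thoracic and abdominal aorta and used up to passage 7. KO VSMC came from the aorta of animals in which floxed Egfr, the epidermal growth factor receptor gene, was excised by Cre recombinase under the SM22 promoter. SM22 is the product of Tagln, 1 of the 40 genes. EC (endothelial cells), all labelled WT, were obtained from hearts by negative selection for CD45 and positive selection for CD31 on beads. After 24 h without serum the cells received, for another 24 h, either medium alone (Control), 20 mM glucose with 100 µM free fatty acids (HG + FFA, metabolic stressors), 30 nM angiotensin II with 300 nM of the catecholamine that the labels give as epinephrine (AII + NA, humoral stressors), or the 4 agents together (ALL stressors). A set is a group of dishes of 1 animal treated side by side. WT VSMC had 4 sets (1 to 4) with 4 libraries in each condition, KO VSMC had 4 sets (5 to 8) with 4, 4, 4 and 3 libraries, the ALL library of set 5 not being analysed here, and EC had 10 sets (9 to 18) with 9 to 10 libraries per condition. The 18 sets came from 13 animals, since 5 animals gave 2 sets each. EC sets 17 and 18 were of 1 animal, and EC sets 15 and 16, labelled WT, carried the animal numbers of KO VSMC sets 7 and 6. EC sets 9 and 10 were of the animals of WT VSMC sets 1 and 2. Libraries held between 17166133 and 43240489 assigned reads. p-values measure the spread between these sets and no more.

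Contraction of smooth muscle starts when calcium and calmodulin activate the myosin light chain kinase, which phosphorylates the regulatory light chain and lets myosin pull on actin filaments. RhoA and its kinases slow the reversal by inhibiting the myosin phosphatase. Cultured smooth muscle cells are known to lose smooth muscle myosin, calponin and desmin and to keep actin and the nonmuscle myosins. Many contractile genes are transcribed by serum response factor, which binds a short element called the CArG box.

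The element is shown here because the genes differ in whether it lies next to the start site. Promoter windows of 300 bases from 250 before the gene start (RefSeq, GRCm38.p6) were found for 36 of the 40 genes, in 44 windows, and were not found for Actg2, Tagln, Myh11 and Rock1. A strict CArG box (CC, 6 bases that are each A or T, and GG, which reads alike on both strands) was found in 4 of the 44 windows (9.09%) and in 1.63% of all 32851 promoter windows. When 1 of the 6 middle bases could be C or G, 10 of the 44 windows (22.7%) and 9.98% of all windows held a match. The windows of 30 bases below are given 5′ to 3′ on the strand of the gene, with the match in capitals. The first 4 are the strict matches. The others are the matches of Acta2, and of Myl12a and Hspb6, picked as 2 of the 14 genes called higher with ALL stressors below. None of the 4 genes with a strict match was among these 14, and neither was Acta2. DESeq2 called Myl6 as well (FDR 0.0407). Without set 1, edgeR called Myl6 (FDR 0.0394), Myl9 (FDR 0.0494) and Vcl (FDR 0.0489) higher with ALL stressors. Tagln, which was among the 14, had no window to search. Matches with 1 C or G in Tpm3 and Synm, which were not among the 14, are not shown.
Cnn2, chr10:79988534-79988563, plus strand: cgcttccacgCCTTATAAGGacatttgctc
Myl6, chr10:128493040-128493069, minus strand: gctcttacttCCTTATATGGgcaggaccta
Myl9, chr2:156775293-156775322, plus strand: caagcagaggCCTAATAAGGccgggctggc
Vcl, chr14:20929161-20929190, plus strand: cccactatgcCCTTATAAGGagcgccccgc
Acta2, chr19:34255438-34255467, minus strand: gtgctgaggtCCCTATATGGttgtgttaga
Acta2, chr19:34255388-34255417, minus strand: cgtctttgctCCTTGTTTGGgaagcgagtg
Myl12a, chr17:71002532-71002561, minus strand: tcctcaattgCCCTAAAAGGacttagacgg
Hspb6, chr7:30553051-30553080, plus strand: acaCCTATAAGGGtctgcctcctagacttt
The strict matches of Cnn2, Myl6 and Myl9 began 56, 50 and 161 bases upstream of the gene start. The 2 matches of Acta2 began 84 and 34 bases upstream, and Myl9 held another match with 1 C or G, not shown, 99 bases upstream. A match is a string of letters and does not show that the factor was bound in these cells.

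Levels in WT VSMC without stressors placed the smooth muscle actin and the nonmuscle machinery high and the late markers of contractile smooth muscle low. On a scale per exonic length (FPKM), the highest mean levels were those of Cnn2 with 204, Acta2 with 191, Myl6 with 155, Cnn3 with 132 and Tpm4 with 103. Cnn2 encodes the calponin of nonmuscle cells, Acta2 the smooth muscle α-actin and Myl6 the essential light chain of smooth and nonmuscle myosin. The lowest were Actg2 with 1.51 FPKM, Tagln with 1.42, Myh11 with 0.851, Synpo2 with 0.718 and Des with 0.242. Des encodes desmin and held rank 40 of 40 in WT VSMC, KO VSMC and EC alike. The nonmuscle myosin heavy chains Myh9 (83.6 FPKM) and Myh10 (23.2 FPKM) both lay above the smooth muscle heavy chain Myh11. Tagln lay low on these tables, but 66.7% of its exonic bases are shared with Gm48529 and Pcsk7, and reads in shared bases may not have been assigned to it. Over its unshared bases its level was 4.25 FPKM. By the same measure Acta2, with 211 FPKM, lay above Cnn2 with 204 FPKM.

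The labelled cell type was checked against 5 markers of smooth muscle, given here as normalised read counts in FPM, which are scaled by the library size after TMM adjustment over all 69 libraries. All 5 are among the 40 genes, so the check is not independent of the genes under study. In WT VSMC Control libraries of sets 1, 2, 3 and 4, Acta2 had 840, 359, 1036 and 236 FPM. Cnn1, the calponin of differentiated smooth muscle, had 19.3, 6.99, 37.2 and 6.31 FPM. Myh11, the heavy chain that defines contractile smooth muscle, had 5.53, 7.10, 3.02 and 10.2 FPM. All 3 were detected in every WT library, with Acta2 highest in set 3 and lowest in set 4. Lmod1, a nucleator of actin filaments, had 29.9, 30.3, 52.4 and 26.7 FPM, and Tagln had 4.59, 2.26, 3.04 and 1.68 FPM. Markers of fibroblasts (7 genes) summed to between 3391 and 6895 FPM in the same libraries, and none of the 7 was under 1 FPM in all of them. The part of these cells in the values below was not tested. In bulk libraries, fewer cells of a type and less RNA per cell cannot be told apart. Egfr had 283, 324, 431 and 504 FPM in WT VSMC Control, against 40.2, 0.694, 0.538 and 1.69 FPM in KO VSMC sets 5 to 8, so the transcript was low in 3 KO sets and intermediate in set 5.

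**Figure D1:**
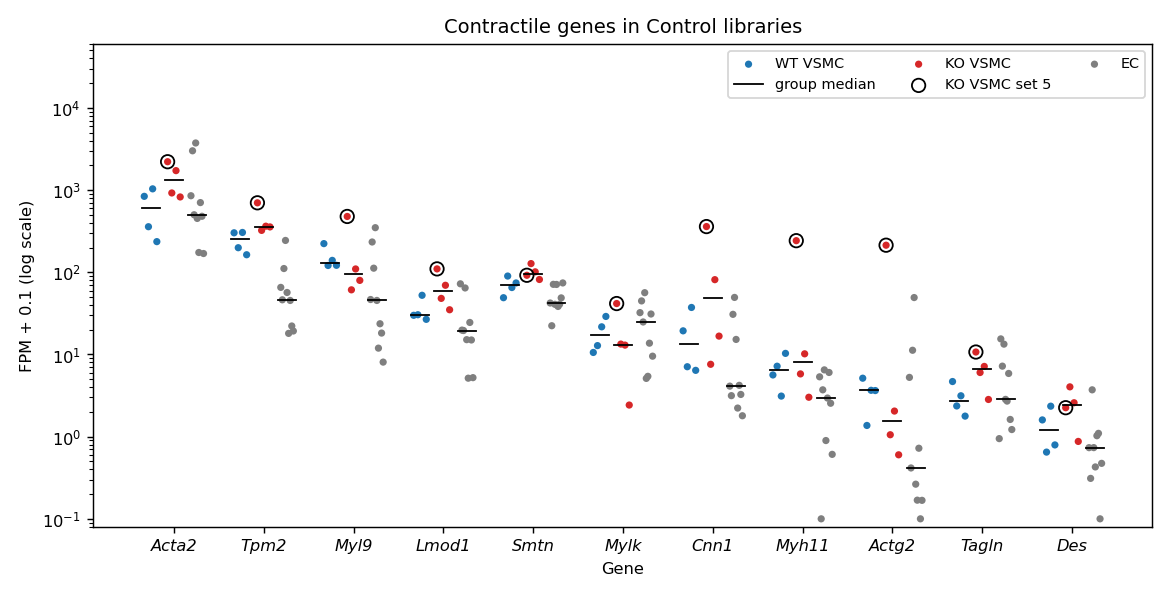
Each point is 1 Control library and shows the FPM of a gene plus 0.1 on a log scale, for WT VSMC, KO VSMC and EC, with the group median as a line. The circled library of KO VSMC set 5 lies far above the other KO libraries for Cnn1 (360 FPM), Myh11 (242 FPM) and Actg2 (213.5 FPM), and EC libraries spread from 169 to 3745 FPM for Acta2.

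The first question was how the stressors moved these genes in WT VSMC. With ALL stressors, 14 of the 40 genes rose and none fell at an FDR under 0.05 (edgeR quasi-likelihood test, set as a block), where 3.92% of all 16905 genes tested rose and 3.53% fell. Over all directions, 7.45% of genes were called. At an unadjusted p under 0.05, 27 genes were higher and 1 lower, where 21.7% of all genes passed. The median log2FC of the 40 genes was 0.48, and that of all genes −0.01. With AII + NA only Mylk was called, where 0.0532% of all genes were called, 0.0473% higher and 0.00592% lower, but 28 genes were higher and none lower at an unadjusted p under 0.05, where 9.42% of all genes passed in either direction. The median log2FC of the 40 genes was 0.44 with AII + NA. In every set, 25 genes were higher and none was lower with AII + NA, beside 8.9% of all genes higher and 10.7% lower. With ALL stressors, 23 were higher in every set and 3 lower, beside 13.2% and 14.3%. The comparisons share their Control libraries and are not independent. DESeq2 called 18 genes with ALL stressors, the 14 among them, where it called 9.73% of all genes, and 9 with AII + NA, where it called 1.0%. Under a rule after that of the study, which asks for an FDR under 0.05 in both tools and an absolute log2FC of at least 0.64, 9 genes were called with ALL stressors, where 2.24% of all genes were, and Mylk with AII + NA, where 0.0473% were.

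The 14 genes called with ALL stressors were spread over the roles. Both nonmuscle heavy chains and 2 of the 4 light chains were called, as were 2 of the 8 kinase, phosphatase and RhoA genes, 4 of the 7 anchors, 1 of the 4 tropomyosins, 1 of the 7 thin filament regulators and 2 of the 4 genes in the last group. None of the 2 actins and the filament cap was called.

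**Figure D2:**
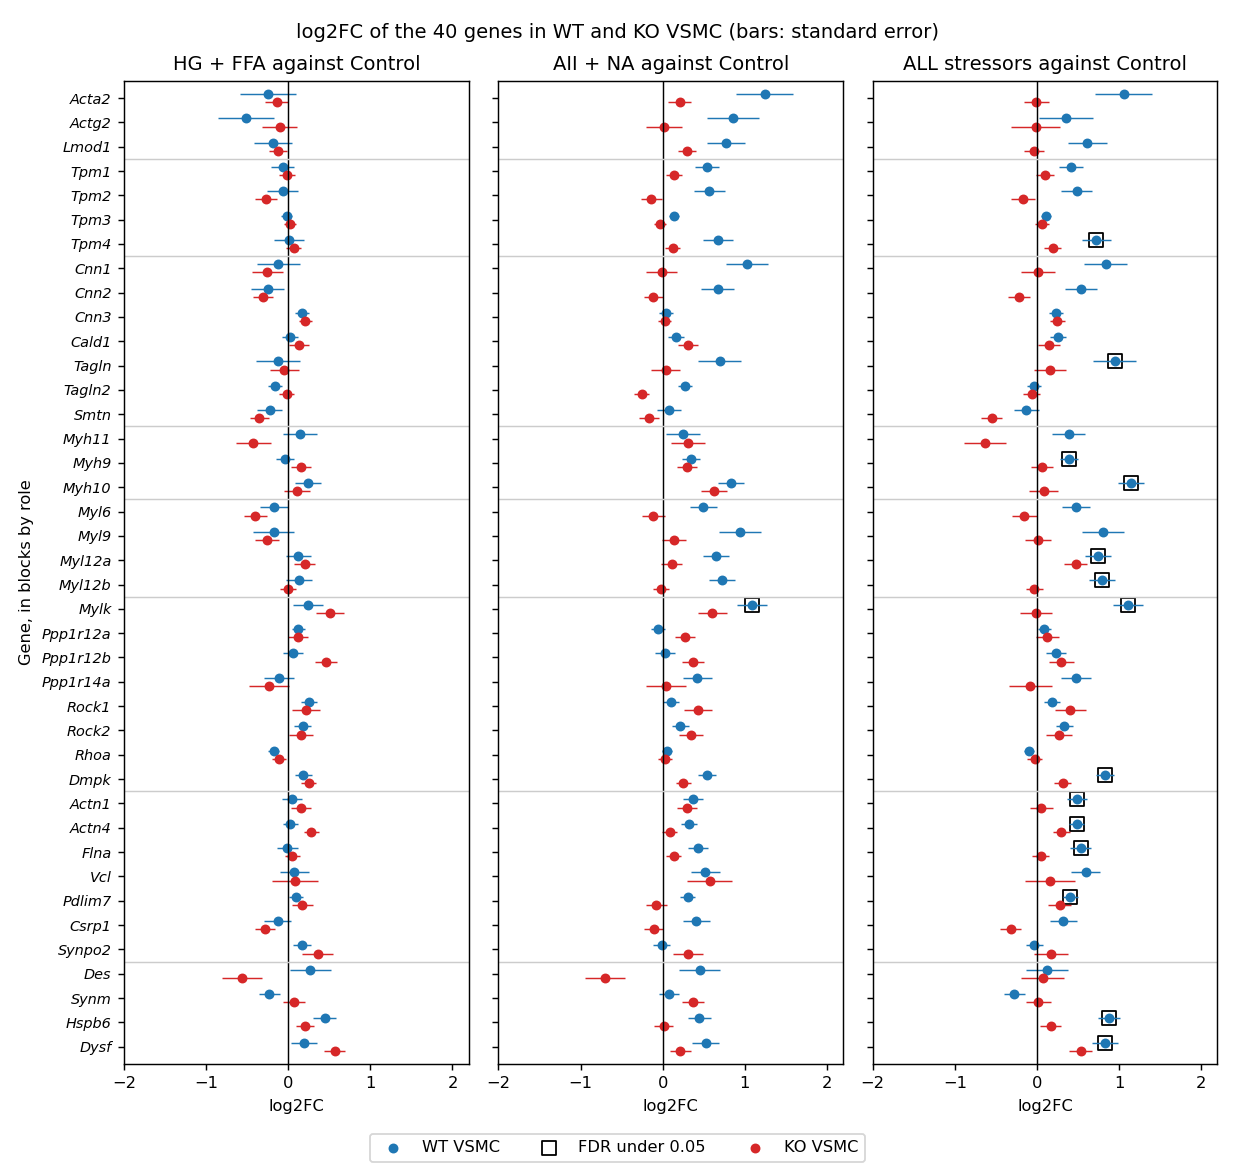
Each point is the log2FC of 1 gene against Control with its standard error, for WT VSMC (blue) and KO VSMC (red), in 3 panels by stressor, with genes in blocks by role. Squares mark an FDR under 0.05, which 14 genes reached in WT VSMC with ALL stressors, Mylk with AII + NA, and none in KO VSMC.

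Mylk encodes the myosin light chain kinase (chromosome 16, 34565580 to 34822790 on GRCm39). In WT sets 1, 2, 3 and 4 it had 10.5, 12.7, 21.6 and 28.9 FPM in Control and 18.3, 36.6, 30.6 and 78.5 FPM with AII + NA. With ALL stressors it had 16.4, 31.0, 45.2 and 77.2 FPM. Each set was higher than its own Control in both conditions, although the groups overlap because sets 3 and 4 began higher than set 1. Mylk rose by a log2FC of 1.09 ± 0.18 (SE, FDR 0.0441) with AII + NA and of 1.11 ± 0.18 (FDR 0.00211) with ALL stressors. With HG + FFA it had 9.01, 20.3, 29.7 and 27.5 FPM, higher in 2 of the 4 sets, with a log2FC of 0.24 (FDR 0.688).

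Myh10 encodes the heavy chain of nonmuscle myosin IIB (chromosome 11, 68582385 to 68707470 on GRCm39). It had 225, 232, 328 and 285 FPM in Control and 395, 577, 561 and 923 FPM with ALL stressors. The groups did not overlap, and set 4 was the highest with stressors. The change of 1.15 ± 0.16 (FDR 0.000824) was the largest log2FC of the 40 genes with ALL stressors. With AII + NA Myh10 had 362, 408, 430 and 774 FPM, all above Control, at a log2FC of 0.83 and an FDR of 0.0869. The other nonmuscle heavy chain, Myh9, had 1177, 1185, 1604 and 1013 FPM in Control and 1447, 1611, 1791 and 1617 FPM with ALL stressors. It rose by 0.39 ± 0.11 (FDR 0.0396), and leaving out any 1 of the 4 sets ended the call (FDR 0.0647 to 0.18).

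Dmpk encodes the myotonic dystrophy protein kinase, which can phosphorylate the targeting subunit of the myosin phosphatase. It had 330, 304, 333 and 258 FPM in Control and 542, 569, 515 and 540 FPM with ALL stressors, without overlap. The log2FC was 0.83 ± 0.11 with the smallest FDR of the 40 genes (0.000436). The targeting subunits themselves were not called.

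The regulatory light chains Myl12a and Myl12b, which the kinase phosphorylates in nonmuscle myosin, both rose. The 2 genes are near-identical, and reads with several alignments were counted, so their counts may share reads. Myl12a had 337, 195, 386 and 180 FPM in Control and 414, 385, 545 and 404 FPM with ALL stressors, and its log2FC was 0.75 ± 0.16 (FDR 0.00889). Myl12b had 24.3, 12.4, 22.5 and 10.4 FPM in Control and 32.9, 29.2, 30.7 and 21.9 FPM with ALL stressors, and its log2FC was 0.80 ± 0.16 (FDR 0.00647). In both genes sets 2 and 4 began low and moved furthest. The smooth muscle regulatory chain Myl9 had 223, 121, 140 and 122 FPM in Control and 247, 265, 140 and 445 FPM with ALL stressors (log2FC 0.81, FDR 0.0675), with set 3 at the same level in both.

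Hspb6 encodes a small heat shock protein linked to the relaxation of smooth muscle. It had 13.4, 15.98, 22.9 and 14.2 FPM in Control, 15.8, 24.4, 31.0 and 19.6 FPM with HG + FFA, 14.7, 16.9, 31.8 and 28.6 FPM with AII + NA, and 19.0, 33.9, 39.4 and 31.1 FPM with ALL stressors. It was higher than Control in every set under each of the 3 stressors, and the levels of the 4 sets overlapped between conditions. With ALL stressors the log2FC was 0.88 ± 0.14 (FDR 0.0017). Dysf, the gene of the membrane repair protein dysferlin, had 23.8, 19.8, 40.9 and 15.1 FPM in Control and 42.0, 35.5, 55.4 and 36.0 FPM with ALL stressors (0.83 ± 0.16, FDR 0.006).

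Tagln was the one thin filament regulator called. It had 4.59, 2.26, 3.04 and 1.68 FPM in Control and 4.78, 4.82, 5.42 and 6.59 FPM with ALL stressors, a log2FC of 0.95 ± 0.26 (FDR 0.0361). The Control sets differed by more than the ALL sets, and set 1 hardly moved. Its FDR was 0.124 without set 2, 0.12 without set 3 and 0.108 without set 4. Tpm4, the tropomyosin of nonmuscle cells, rose by 0.72 ± 0.18 (FDR 0.0226). The 4 anchors called were Flna (0.53 ± 0.13, FDR 0.0176), the α-actinins Actn1 (0.49 ± 0.12, FDR 0.0245) and Actn4 (0.49 ± 0.09, FDR 0.00531), and Pdlim7 (0.41 ± 0.09, FDR 0.0105). Each of the 14 was higher in 4 of 4 sets but Flna, which was higher in 3 of 4. The calls of Actn1 and Flna were lost without set 1, without set 2 and without set 4, that of Tpm4 without set 2 and without set 4, and that of Pdlim7 without set 4.

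**Figure D3:**
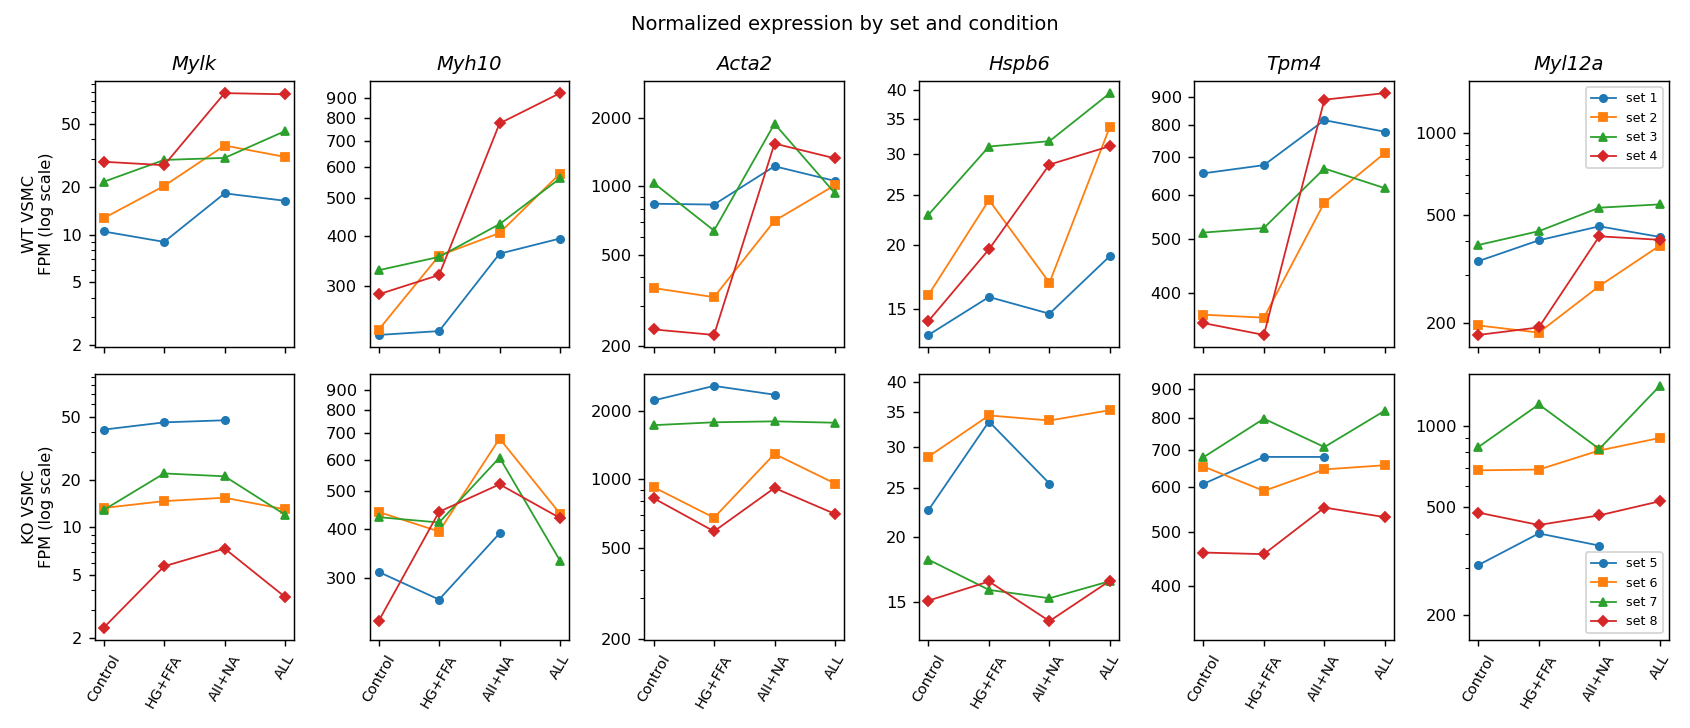
FPM on a log scale in each condition for 6 genes, with WT VSMC sets 1 to 4 in the upper panels and KO VSMC sets 5 to 8 in the lower panels, and a line joining the libraries of a set. Each WT set shows more Mylk and Myh10 with AII + NA and with ALL stressors than in Control, and set 4 (red diamonds) moves furthest for Acta2, from 236 to 1542 FPM with AII + NA.

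The classical markers of the contractile state showed wide spread in WT VSMC and did not pass the test with either stressor mixture that held angiotensin II, except Mylk and, with ALL stressors, Tagln. Acta2 had 1226, 707, 1884 and 1542 FPM with AII + NA, higher than Control in 4 of 4 sets, and its log2FC was 1.24 ± 0.35 (FDR 0.213). With ALL stressors it had 1057, 1013, 933 and 1328 FPM, higher in 3 of 4 sets, at a log2FC of 1.06 (FDR 0.0823). Paired log2 differences ran from 0.55 to 2.71 with AII + NA, and set 4 was the highest. Cnn1 had 34.6, 9.44, 67.0 and 25.3 FPM with AII + NA, each above its own Control (1.03, FDR 0.168), and reached 0.84 (FDR 0.0628) with ALL stressors. Lmod1 reached 0.77 (FDR 0.264) and 0.62 (FDR 0.133). Actg2, the γ-actin of visceral smooth muscle, reached 0.86 (FDR 0.37) and 0.35 (FDR 0.585). Myh11 reached 0.25 (FDR 0.76) and 0.39 (FDR 0.283), Des 0.45 (FDR 0.629) and 0.12 (FDR 0.844), and Smtn, the smoothelin gene, 0.08 (FDR 0.91) and −0.13 (FDR 0.684).

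The differences were smaller without set 4. The median log2FC of the 40 genes was then 0.27 with AII + NA and 0.32 with ALL stressors, and 8 genes were called with ALL stressors, each among the 14 (Actn4, Myh10, Myl12a, Myl12b, Mylk, Hspb6, Dysf and Dmpk), where 2.89% of all genes were called. Without set 2, 9 genes were called, each among the 14, where 3.77% of all genes were called. The call of Mylk with AII + NA was lost without set 1, without set 2 and without set 4. Fibroblast markers were lower with ALL stressors for 7 of 7 genes, 1 of them called, with a median log2FC of −0.32 and sums of 2525 to 5275 FPM. Of 6 pericyte markers, 2 were called lower and 1 higher, with a median log2FC of −0.44 and sums of 680 to 890 FPM in Control and 746 to 935 FPM with ALL stressors. Endothelial markers had 2 of 9 genes called lower, with sums of 3.81 to 73.8 FPM in Control and 2.55 to 36.1 FPM with ALL stressors. The sum of 8 cardiomyocyte markers, 6 of which were under 1 FPM in all libraries and 1 of which was called higher, was 6.91 to 34.5 FPM in Control and 6.37 to 124 FPM with ALL stressors, highest in set 4. Of 8 skeletal muscle markers, 1 was called higher, and they summed to 1.95 to 3.21 FPM in Control and 0.945 to 4.53 FPM with ALL stressors. The part of these cells in the changes of the 40 genes was not tested.

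The metabolic stressors alone left the 40 genes near Control in WT VSMC. None was called with HG + FFA in edgeR, where 0.538% of all genes were, and 3 had an unadjusted p under 0.05, where 11.2% of all genes did. DESeq2 called 1, Rhoa, at −0.18 (FDR 0.0454), where it called 1.74% of all genes. The median log2FC was 0.01, and 7 genes were higher and 6 lower in every set, beside 9.7% and 11.5% of all genes. Acta2 had 833, 327, 640 and 223 FPM, lower than Control in 4 of 4 sets (−0.25, FDR 0.846). Tagln (−0.13), Cnn1 (−0.12), Lmod1 (−0.19), Smtn (−0.23) and Actg2 (−0.52) had negative and Myh11 (0.14) and Des (0.27) positive log2FC. The effect of ALL stressors was then set against the sum of the separate effects of HG + FFA and AII + NA. No gene differed from that sum in edgeR or DESeq2, none at an unadjusted p under 0.05 (1.72% of all genes), and the median difference was 0.02. Des had the lowest value, −0.60 ± 0.36, and Tagln the highest, 0.38 ± 0.37.

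In KO VSMC no gene of the 40 passed an FDR of 0.05 in edgeR with any stressor. The share of all 17538 genes called was 0.439% with HG + FFA (0.336% higher and 0.103% lower), 0.0% with AII + NA and 0.399% with ALL stressors. At an unadjusted p under 0.05, 11, 14 and 9 genes passed, where 12.4%, 9.76% and 10.5% of all genes did, and the medians of the 40 log2FC were 0.06, 0.13 and 0.06. DESeq2 called Dysf with HG + FFA (0.56, FDR 0.00457), none with AII + NA, and Dysf (0.53, FDR 0.0274) and Smtn (−0.56, FDR 0.0128) with ALL stressors, where it called 1.4%, 0.0627% and 1.48% of all genes. With AII + NA, 13 genes were higher and 2 lower in every KO set, beside 6.66% and 7.12% of all genes. With HG + FFA, 6 genes were higher and 2 lower in every set, beside 7.01% and 6.53%. With ALL stressors, 10 were higher and 7 lower in each of the 3 sets, beside 14.4% and 18%.

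Mylk in KO sets 5, 6, 7 and 8 had 41.6, 13.3, 12.9 and 2.32 FPM in Control and 47.6, 15.4, 21.1 and 7.36 FPM with AII + NA. It was higher in 4 of 4 sets, at a log2FC of 0.60 ± 0.17 that did not pass (FDR 0.509). With ALL stressors sets 6, 7 and 8 had 13.02, 12.04 and 3.63 FPM, a log2FC of −0.01. Myh10 had 312, 442, 429 and 234 FPM in Control and 390, 679, 608 and 520 FPM with AII + NA (0.63 ± 0.16, FDR 0.509), higher in 4 of 4 sets. With ALL stressors it had 438, 333 and 427 FPM in sets 6, 7 and 8 (0.08, FDR 0.9), below or near Control in sets 6 and 7 and above it in set 8.

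Acta2 in KO VSMC had 2215, 923, 1726 and 825 FPM in Control, 2348, 1291, 1794 and 915 FPM with AII + NA (0.21, FDR 0.573) and, in sets 6 to 8, 958, 1769 and 704 FPM with ALL stressors (−0.01, FDR 0.994). The KO Control levels of sets 6 and 8 lay within the range of WT Control, and those of sets 5 and 7 above it. Cnn1 (−0.01 and 0.01), Tagln (0.04 and 0.16), Actg2 (0.02 and −0.02) and Lmod1 (0.29 and −0.03) had small log2FC with AII + NA and with ALL stressors. Myh11 had 0.31 and −0.63, Des −0.70 and 0.07, and Smtn −0.16 and −0.55. The value of Smtn with ALL stressors had an FDR of 0.098 in edgeR and 0.0153 without set 5.

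Set 5 weighed on the calls of KO VSMC. Without it, 8 genes were called with HG + FFA, where 4.16% of all genes were called higher and 4.42% lower. Dysf (0.65) and Ppp1r12b (0.61), a targeting subunit of the myosin phosphatase, were higher, and Myl6 (−0.60), Smtn (−0.49), Cnn2 (−0.48), Myl9 (−0.46), Tpm2 (−0.45) and Csrp1 (−0.45) were lower, all at an FDR under 0.05. Without set 5, only Smtn was called with ALL stressors, where 1.04% of all genes were called.

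The difference between the stressor effects of WT VSMC and KO VSMC was tested as an interaction. No gene of the 40 passed in edgeR for HG + FFA, AII + NA or ALL stressors, and the shares of all 18339 genes called were 0.0%, 0.0% and 0.0109%. DESeq2 called 0, 0 and 3, where it called 0.0%, 0.0% and 0.316% of all genes. At an unadjusted p under 0.05, 2, 18 and 18 of the 40 genes passed, where 3.08%, 11.9% and 7.42% of all genes did. The median difference of log2FC, WT minus KO, was −0.05, 0.35 and 0.43, against −0.00, −0.01 and −0.00 over all genes. Without set 4 the latter 2 medians were 0.21 and 0.29, with 7 and 8 genes under an unadjusted p of 0.05.

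The 3 genes that DESeq2 called for ALL stressors were Myh10, Myl12b and Mylk, with differences of 1.07 ± 0.25, 0.84 ± 0.20 and 1.13 ± 0.29 in edgeR. Their edgeR FDR were 0.188, 0.188 and 0.224. Without set 8, Myh10 differed by 1.36 with an FDR of 0.0302, where 0.0375% of all genes were called. For the core markers with ALL stressors the difference was 1.07 for Acta2, 0.84 for Cnn1, 0.79 for Tagln, 1.02 for Myh11, 0.65 for Lmod1, 0.43 for Smtn, 0.39 for Actg2 and 0.05 for Des. For AII + NA it was 1.05 for Acta2, 1.05 for Cnn1, 1.17 for Des, 0.88 for Actg2, 0.67 for Tagln, 0.51 for Mylk, 0.48 for Lmod1, 0.25 for Smtn and −0.06 for Myh11. For HG + FFA it was 0.83 for Des and 0.57 for Myh11, and between −0.39 (Actg2) and 0.14 (Cnn1) for the other 7. None had an FDR under 0.05.

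Without stressors, KO VSMC had higher levels than WT VSMC for 29 of the 40 genes, and 15 of the 40, all higher, had an unadjusted p under 0.05, where 12.2% of all 16089 genes did. None passed an FDR of 0.05 in edgeR, where 0.00622% of all genes did. The median log2FC was 0.38. DESeq2 called 5, where it called 2.13% of all genes: Csrp1, Myl6, Tpm1, Cnn2 and Flna. Without set 5, 22 of the 40 genes were higher and 12 had an unadjusted p under 0.05 in edgeR. The median log2FC was then 0.27, and that of all genes −0.01. With Control, HG + FFA and AII + NA summed per set, 27 were higher, 10 had such a p and the median was 0.27. Shares over all genes are not given for these counts. The animals of the 2 genotypes differ, so the comparison has no pairing.

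Csrp1, Myl6, Cnn2, Tpm1 and Tpm2 had no overlap between genotypes, all with KO higher, where 2.52% of all genes were higher and 2.8% lower without overlap. Csrp1, a LIM protein of the actin cytoskeleton, had 733, 507, 596 and 665 FPM in KO sets 5 to 8 and 266, 241, 203 and 164 FPM in WT sets 1 to 4. Myl6 had 839, 1122, 1421 and 1619 FPM in KO and 618, 445, 532 and 418 FPM in WT VSMC. The log2FC were 1.54 ± 0.21 (FDR 0.134) and 1.33 ± 0.26 (FDR 0.204). Without set 5 both were called, Myl6 at 1.49 and Csrp1 at 1.45, where 2.41% of all genes were. These 2 genes are named after their values were seen. Of the core markers, Acta2 differed by 1.21, Tagln by 1.19, Lmod1 by 0.92, Des by 0.90, Smtn by 0.54 and Mylk by −0.07, with FDR of 0.391 or above. Fibroblast markers had lower levels in KO VSMC for 7 of 7 genes, 4 of them at an unadjusted p under 0.05 and none called, and summed to 342 to 3076 FPM against 3391 to 6895 FPM in WT VSMC. Mesothelial markers (4 genes) summed to 6.17 to 63.8 FPM in KO VSMC and 2.99 to 6.11 FPM in WT VSMC, without overlap, with 1 of the 3 genes tested at an unadjusted p under 0.05 and none called. Cardiomyocyte markers summed to 21.8 to 198 FPM in KO VSMC, with a median of 83.4 FPM, and to 6.91 to 34.5 FPM in WT VSMC, with a median of 22.5 FPM. Of these 8 genes, 5 were under 1 FPM in all KO VSMC Control libraries and 6 in all WT VSMC Control libraries. Tnnt2 alone had a median of 77.9 FPM in KO VSMC and of 18.8 FPM in WT VSMC. The part of these cells in the genotype difference was not tested.

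Actg2, Myh11 and Cnn1 gave the largest fitted differences between genotypes, 4.02, 3.35 and 2.74, and these came from set 5. Actg2 had 213.5, 224.9 and 200.7 FPM in Control, HG + FFA and AII + NA of set 5, and 0.148 to 2.39 FPM in the other KO libraries of the same conditions. Myh11 had 242, 231 and 238 FPM in set 5, and 2.1 to 11.7 FPM in the others. Cnn1 had 360, 422 and 353 FPM in set 5, and 7.49 to 81.2 FPM in the others. Set 5 lay above every other KO library in each of the 3 conditions for all 3 genes.

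In set 5, 6 genes were more than 2-fold above the mean of the other KO sets in all 3 conditions. That set 5 is high in some of these genes was known before they were chosen. No share over all genes was computed, so the count does not show that these 6 stand apart from other genes. The smallest ratio over the conditions was 161 for Actg2, 28.0 for Myh11, 10.3 for Cnn1, 5.73 for Myl9, 3.26 for Mylk and 2.01 for Tpm2. The median ratio of the 40 genes was 1.22, 1.11 and 1.15 in Control, HG + FFA and AII + NA. Core markers were found on both sides of 1, since Smtn had ratios of 0.888, 1.25 and 1.15 and Des of 0.896, 0.977 and 1.15. Myl12a had ratios of 0.461, 0.519 and 0.517. Egfr in set 5 had 40.2, 33.4 and 35.4 FPM in the 3 conditions, above the 0.538 to 1.96 FPM of the other KO libraries of these conditions and below the 228 to 504 FPM of WT VSMC. Fibroblast markers summed to 3076 FPM in set 5 Control and were also highest there among KO sets. Leukocyte (127.8 FPM), endothelial (25.9 FPM) and skeletal muscle (2.74 FPM) markers were highest in set 5 Control too. Mesothelial (6.17 FPM) and cardiomyocyte (21.8 FPM) markers were lowest there among KO sets. The part of the remaining Egfr transcript and of these cell types in the values of set 5 was not tested.

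**Figure D4:**
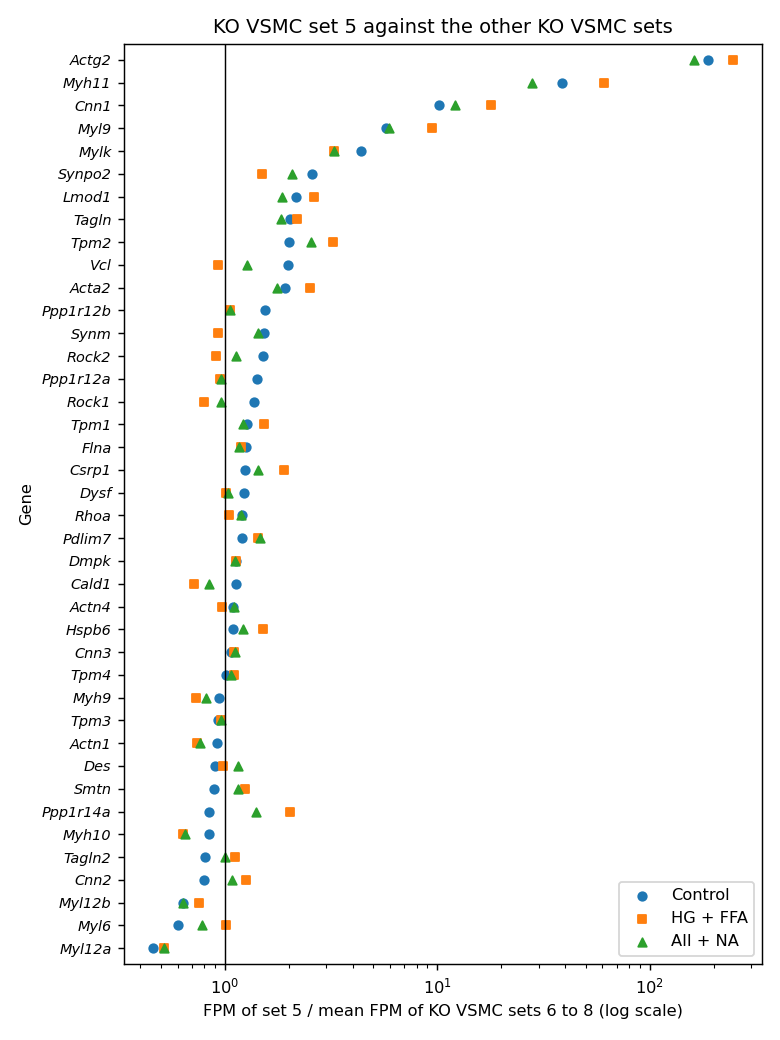
FPM of KO VSMC set 5 divided by the mean FPM of KO VSMC sets 6 to 8, on a log scale, for the 40 genes in Control, HG + FFA and AII + NA. Actg2, Myh11, Cnn1, Myl9 and Mylk stand to the right in each condition, and Myl12a is lowest in Control at 0.461.

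EC also held transcripts of the smooth muscle genes, at levels that varied widely between sets. Acta2 in EC Control had a lowest level of 169 FPM (set 18), a median of 501 FPM and a highest of 3745 FPM (set 13), so that the highest EC set lay above every WT VSMC library. Myl9 ran from 7.97 to 349 FPM with a median of 45.3 FPM, and Tpm2 from 17.95 to 244 FPM with a median of 46.2 FPM. Endothelial markers (9 genes) summed to 55.97, 136.6 and 68.9 FPM in the Control libraries of sets 9, 11 and 13 and to 492 to 4221 FPM in the other Control libraries of EC, against 3.81 to 73.8 FPM in WT VSMC Control. Sets 9, 11 and 13 thus had the lowest endothelial marker sums of EC. Those of sets 9 and 13 lay below WT VSMC set 2 (73.8 FPM) and above the other WT sets (3.81 to 13.7 FPM), and that of set 11 lay above all WT sets. Fibroblast markers summed to 1581, 3733 and 3481 FPM in Control of sets 9, 11 and 13 and to 216 to 1609 FPM in the other EC Control libraries. The part of these cells in the values of EC was not tested. Results of EC are given with and without these 3 sets, a choice made after seeing the data.

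**Figure D5:**
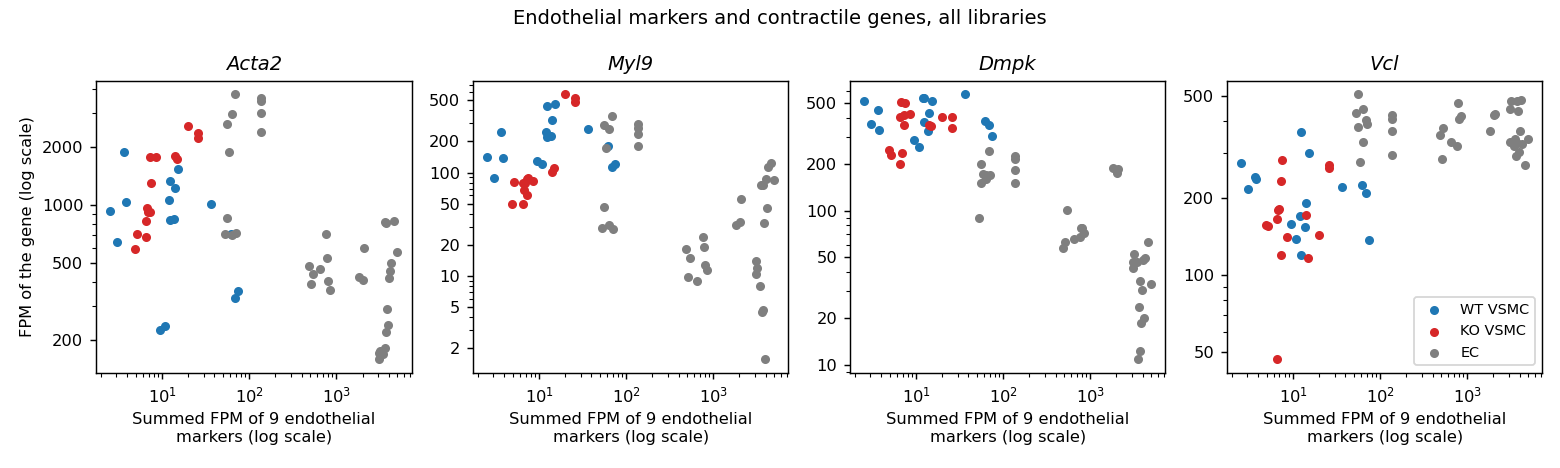
Each point is 1 library of any condition, with the summed FPM of 9 endothelial markers on the horizontal log axis and the FPM of Acta2, Myl9, Dmpk or Vcl on the vertical log axis. EC libraries range in marker sum from 52.7 to 4997 FPM, those of sets 9, 11 and 13 are the lowest, and Dmpk in EC is lowest where the marker sum is high.

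Between EC and WT VSMC in Control, 6 of the 40 genes were called, 4 higher and 2 lower in EC, where 12% of all 17115 genes were called, 6.7% higher and 5.35% lower. Higher were Vcl, the gene of vinculin, at 1.26 ± 0.21 (FDR 0.00366), Tagln2 at 1.10 ± 0.26 (FDR 0.0199), Actn1 at 1.02 ± 0.22 (FDR 0.0109) and Flna at 0.78 ± 0.21 (FDR 0.0321). Lower were Dmpk at −1.65 ± 0.50 (FDR 0.0457) and Cnn3 at −0.68 ± 0.19 (FDR 0.0324). Vcl had a lowest level of 320, a median of 366 and a highest of 508 FPM in EC and 138 to 237 FPM in WT VSMC. Dmpk had 20.2, 57.2 and 242 FPM in EC and 258 to 333 FPM in WT VSMC. Vcl, Actn1 and Dmpk did not overlap between the groups, where 3.14% of all genes were higher and 4.57% lower in EC without overlap. EC sets 17 and 18, of 1 animal, entered as separate samples. EC set 9 and WT VSMC set 1, also of 1 animal, entered as separate samples on the 2 sides. Without set 18, 5 of the 6 genes were called and Dmpk was not, where 10.0% of all genes were called. EC and VSMC differ in organ, isolation and the batch label at once, and these cannot be told apart.

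The core markers did not pass between EC and WT VSMC. Acta2 differed by 0.89 (FDR 0.488), Actg2 by 1.16, Tagln by 0.97, Mylk by 0.44, Lmod1 by −0.37, Cnn1 by −0.45, Smtn by −0.46, Des by −0.53 and Myh11 by −1.05. Without sets 9, 11 and 13, 14 genes were called, 9 higher and 5 lower, with all 6 among them, where 15% of all genes were higher and 13.5% lower. Lmod1 was then called at −1.28 (FDR 0.0431), Tpm2 at −2.39, Myl9 at −2.02 and Dmpk at −2.61, and Acta2 had −0.54 (FDR 0.428), opposite in sign to the value with all sets. Leaving out any 1 WT set left 1 or 2 genes called, where 3.72% to 4.9% of all genes were called. Vcl and Actn1 were left without sets 1, 3 or 4, and Vcl alone without set 2. DESeq2 called 9 genes, the 6 among them, where it called 21.1% of all genes.

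The stressors were then compared with Control in EC. Dysf rose with HG + FFA in 9 of 9 sets that held both conditions, with a log2FC of 0.33 ± 0.08 (FDR 0.0171). In the 9 Control libraries it had 11.6, 26.2 and 55.3 FPM (lowest, median and highest). In the 10 libraries with HG + FFA, which include set 10 without a Control, it had 14.5, 37.0 and 61.4 FPM. Dysf was the 1 gene of the 40 called in EC with HG + FFA (2.5%), where 1.64% of all 17148 genes rose, 1.88% fell and 3.53% were called in all. Its paired differences ran from 0.15 to 0.66. The call was lost when the animal replaced the set as a block and when sets 15 and 16, whose animals also gave KO VSMC, were left out, where Tpm4 (0.39, FDR 0.0312) was called in its place and 1.47% of all genes were called. Without sets 9, 11 and 13 Dysf (0.40, FDR 0.0395) and Ppp1r12b (0.39, FDR 0.0357) were called, where 2.58% of all genes were.

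With AII + NA and with ALL stressors none of the 40 genes was called in EC in edgeR, where 0.0% and 3.18% of all genes were. At an unadjusted p under 0.05, 1 and 10 genes passed, where 6.67% and 16.2% of all genes did, and 12 (30.0%) passed with HG + FFA, where 16.9% did. DESeq2 called 0 with AII + NA, 3 with ALL stressors (Cnn3, Tpm4 and Dysf) and 7 with HG + FFA, where it called 0.0%, 5.22% and 5.65% of all genes. Without sets 9, 11 and 13 none was called in edgeR with AII + NA or with ALL stressors, where 0.0% and 1.91% of all genes were, and 0 and 7 genes had an unadjusted p under 0.05. The medians of the 40 log2FC were −0.00 with HG + FFA, −0.08 with AII + NA and −0.05 with ALL stressors. Acta2 had −0.04, −0.23 and −0.03, Mylk −0.01, 0.06 and −0.19, Cnn1 −0.07, −0.51 and −0.30, and Smtn −0.15, −0.16 and −0.12. Tagln had 0.80, −0.15 and 0.32, Myh11 0.27, 0.28 and −0.10, Lmod1 −0.19, −0.20 and −0.36, Des −0.56, −0.50 and 0.11, and Actg2 −1.22, −0.62 and −1.29, none with an FDR under 0.05. Signs agreed in every EC set for 2 genes higher with HG + FFA, 2 lower with AII + NA and none with ALL stressors, beside 1.24%, 0.863% and at most 1.32% of all genes in those directions.

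Related genes outside the 40 were read from 5 lists in WT VSMC with ALL stressors. Of 36 genes of focal adhesions and dense plaques, 9 rose and none fell, led by the integrin subunit Itga8 (1.76), Fblim1 (0.93) and Nexn (0.90). Of 11 small heat shock and intermediate filament genes, 4 rose and none fell, led by Hspb7 (1.18), Cryab (0.69) and Hspb1 (0.63). Of 16 regulators grouped with the cofactors of serum response factor, Mrtfa (0.44) and Tead1 (0.40) rose and Klf4, a repressor of contractile genes, fell by 0.58 on the log2 scale. Of 31 regulators of calcium, G protein and RhoA signalling tested, 3 rose and 1 fell, and of 17 further actomyosin paralogs tested, Synpo (0.49) and Tpm3-rs7 (0.28) rose and none fell. With AII + NA only Itga8 (1.62) was called among the 5 lists in WT VSMC. In KO VSMC only Klf5 (−0.995) was called with ALL stressors, and none with AII + NA. The lists are compared here with the 3.92% of all genes that rose and 3.53% that fell in WT VSMC with ALL stressors.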

How the data were processed

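RNA of cultured WT VSMC, KO VSMC and EC was sequenced after poly(A) enrichment. The deposited files held raw read counts per Ensembl gene. According to the methods and the submitters' processing notes, the authors aligned reads with HISAT2 (2.1.0) and counted them on exons of mm39 with featureCounts, including reads with several alignments. Whether strand was used is not given in the sources used here. Reads in bases shared with antisense or overlapping genes may therefore not have been assigned. This concerned Tagln (66.7% of exonic bases shared with other genes), Cnn1 (35.1%) and Vcl (24.6%) most. Multimapping reads can be shared between the near-identical Myl12a and Myl12b.

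Counts were tested with edgeR (4.0.16, R 4.3.3), with TMM scaling, filterByExpr, a quasi-likelihood F test and the Benjamini-Hochberg adjustment over all genes tested. WT VSMC, KO VSMC and EC were each fitted alone, with the set as a block, since the study gives a set as cells of 1 animal treated together. The block was checked: deviations from the condition means correlated within sets at a mean r of 0.703, 0.663 and 0.717 in WT VSMC, KO VSMC and EC, and between sets at −0.25, −0.251 and −0.0843. The lowest value within a set was 0.443. Genotype and cell type comparisons had no block. A gene was called at an FDR under 0.05. FPM are counts scaled by the library size after TMM adjustment over all 69 libraries, and FPKM are FPM per kilobase of exon. The scripts were tested on simulated data.

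Genes named with values were those called, or the 5 largest rises and falls where over 10 were called, and 9 core markers in each comparison. Other members are named after their values were seen. The 40 genes, the related lists and the marker lists were chosen with earlier results of these data known. Alternatives were DESeq2 (1.42.0), its size factors, the study's rule for differential genes (called by edgeR and by DESeq2, with a change of 0.64 or more on the log2 scale and 3 FPM reached by either group), no filter on low counts, no block, only the conditions compared, the animal as a block, and leaving out sets. Authors' columns of comparisons were not used, and no column was unassigned.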

Additional observations from a re-analysis of the deposited data

Results flagged for a closer look

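The screen for a library far from the others covered only the 9 core markers. The other genes were not screened, so it does not show whether a library stood apart for them. Among 99 groups of 4 to 10 libraries, each for a core marker in a condition of a cell type, 19 held a library far from the others. Chance gives about 1 in 20 for independent groups, but these groups repeat the same sets over the conditions and are not independent. That set 5 is high in some of these genes was known before the genes were chosen. In KO VSMC, set 5 stood apart for 8 of the 19. Actg2 had 213.5 FPM in Control, 224.9 FPM with HG + FFA and 200.7 FPM with AII + NA there. Cnn1 had 421.7 FPM with HG + FFA and 352.9 FPM with AII + NA in that set. Myh11 had 242.4, 231.2 and 238.1 FPM in Control, HG + FFA and AII + NA of set 5.

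In WT VSMC, Lmod1 in Control of set 3 stood apart with 52.39 FPM. In EC, set 13 held the high Actg2 values of 49.17 FPM in Control, 29.55 FPM with HG + FFA, 19.46 FPM with AII + NA and 16.66 FPM with ALL stressors. Set 12 held the high Des values of 3.613, 4.045, 6.019 and 5.589 FPM in the same order of conditions. With ALL stressors, Acta2 had 3593 FPM in EC set 11 and Lmod1 had 62.55 FPM in EC set 9.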

How the results depend on the processing

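The counts of called genes depended on the setting more than the directions did. No called gene changed sign under any alternative run. Over single genes and alternatives, 1422 values stayed on their side of the threshold or within their spread, 66 lost and 31 gained a call, and 90 untested values moved.

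In WT VSMC with ALL stressors 14 genes were called, and 9 under the study's rule for differential genes, 26 without a filter on low counts (5.61% of all genes) and 8 to 14 when 1 set was left out (2.89% to 5.74% of all genes). With AII + NA the count was 1, and 9 with DESeq2, 25 without a filter (1.86% of all genes), 9 with only the 2 conditions compared (0.806%) and 0 to 1 with 1 set left out. With HG + FFA it was 0, and 1 with DESeq2, without a filter (1.71%) and with the 2 conditions alone (1.44%). Without the replicate block the count was 0 for each of these 3 comparisons and for EC with HG + FFA, and leaving out the block changed no other count within a cell type or of WT minus KO. In KO VSMC the counts were 0, and with HG + FFA 1 with DESeq2, 5 without a filter (1.85%) and 0 to 8 with 1 set left out, with AII + NA 3 without a filter (0.828%), and with ALL stressors 2 with DESeq2, 4 without a filter (1.43%) and 0 to 1 with 1 set left out. For WT minus KO they were 12 without a filter for AII + NA (0.98%), and for ALL stressors 3 with DESeq2, 15 without a filter (0.905%) and 0 to 1 with 1 set left out. For KO against WT VSMC they were 5 with DESeq2, 1 without a filter (0.0324%) and 0 to 2 with 1 set left out. In EC with HG + FFA 1 gene was called, and 7 with DESeq2, 6 without a filter (2.42%), 0 under the study's rule, 0 with the animal as the block and 2 without sets 9, 11 and 13. In EC with ALL stressors the count was 0, and 3 with DESeq2, 4 without a filter (2.44%) and 1 without sets 15 and 16 (1.68%). For EC against WT VSMC it was 6, and 9 with DESeq2 (21.1%), 4 without a filter (4.74%), 5 without EC set 18 (10.0%), 1 to 2 with 1 WT set left out (3.72% to 4.9%) and 14 without sets 9, 11 and 13 (28.5%). Counts given here without a share of all genes do not by themselves tell a change in these genes from a change in all calls. The cause of these shifts was not tested. With 3 or 4 VSMC sets per condition, a p above the threshold does not show that a gene did not change.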
